A study of Rattus norvegicus with 8 samples.

Results

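The proteins described here build the thin filament, anchor it at the Z-disc and tie down the myosin heads of the thick filament. The rule named 10 genes: the tropomyosins Tpm1, Tpm2 and Tpm3, the sarcomeric actins Acta1 and Actc1, the actinins Actn2 and Actn3, and the myosin binding proteins C Mybpc1, Mybpc2 and Mybpc3. Every probe set annotated to exactly 1 of these symbols was taken, which gave 28 of the 31042 probe sets that are not controls. They cover 9 of the 10 genes. Actc1 has no probe set of its own, because each of the 5 probe sets that carry its symbol also carries Acta2. Of the 28, Tpm3 holds 12, Tpm1 holds 7, Tpm2 and Mybpc2 hold 2 each, and the other 5 genes hold 1 each.

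Total RNA of extraocular muscles, the muscles that move the eye, was hybridised to Affymetrix rat arrays, and 8 arrays were deposited from a study of 8 adult Sprague-Dawley rats of 200 ± 40 g at the start. The labels do not tie an array to a rat, so p-values measure the spread between these arrays. The rats behind the 4 hyperthyroid arrays had been injected intraperitoneally with 25 µg of the thyroid hormone T3 per 100 g body weight on alternate days over 6 weeks, and were killed 24 hours after the final dose. The 4 control samples are labelled untreated, and no label mentions a vehicle. Each array carries its title's number: 1, 2, 3 and 5 are hyperthyroid, and 7, 8, 9 and 11 are control. The values are the deposited signals, on a linear scale, already brought to a common trimmed mean. Signals of different probe sets are not set against each other, because probes differ in how strongly they bind.

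Tropomyosin is a coiled coil that lies along actin and, with troponin, opens or blocks the sites where myosin binds. Actinin cross-links the actin ends at the Z-disc. Myosin binding protein C sits in stripes on the thick filament and slows or speeds cross-bridges. Each family has members that prevail in slow fibres (Tpm3, Mybpc1), in fast fibres (Tpm1, Actn3, Mybpc2) or in the heart (Actc1, Mybpc3), and thyroid hormone is known to move rodent limb muscle towards fast isoforms. Extraocular muscle is unusual in that adult fibres keep myosins that other muscles use only in development.

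Among the tropomyosin genes here, Tpm3 has more than 1 annotated start site, from which muscle and non-muscle proteins are made. The windows around 4 start sites are shown because Tpm3 and Mybpc3 had the largest group differences among the 9 genes at their brightest probe sets, and Acta1 one of the smallest. Each window runs from 250 bases before the start site to 50 after it (RefSeq, GRCr8), is written 5′ to 3′ on the gene's strand, and has capitals where a searched motif was found. Tpm3 has 3 annotated windows, of which the upstream one and the first of 2 overlapping downstream ones are given.
Tpm3 upstream start, chr2:177814633-177814932, plus strand: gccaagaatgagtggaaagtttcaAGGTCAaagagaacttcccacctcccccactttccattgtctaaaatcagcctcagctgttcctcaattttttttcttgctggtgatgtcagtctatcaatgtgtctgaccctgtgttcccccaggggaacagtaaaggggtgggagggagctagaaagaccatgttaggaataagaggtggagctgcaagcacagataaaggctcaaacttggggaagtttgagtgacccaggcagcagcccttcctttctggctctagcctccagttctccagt
Tpm3 downstream start, chr2:177821115-177821414, plus strand: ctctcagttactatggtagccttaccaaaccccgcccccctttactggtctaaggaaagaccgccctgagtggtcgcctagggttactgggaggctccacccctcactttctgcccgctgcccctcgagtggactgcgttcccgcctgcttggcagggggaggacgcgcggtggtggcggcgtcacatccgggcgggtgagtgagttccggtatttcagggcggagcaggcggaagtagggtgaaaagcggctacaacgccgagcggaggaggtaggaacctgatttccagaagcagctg
Mybpc3, chr3:97550811-97551110, plus strand: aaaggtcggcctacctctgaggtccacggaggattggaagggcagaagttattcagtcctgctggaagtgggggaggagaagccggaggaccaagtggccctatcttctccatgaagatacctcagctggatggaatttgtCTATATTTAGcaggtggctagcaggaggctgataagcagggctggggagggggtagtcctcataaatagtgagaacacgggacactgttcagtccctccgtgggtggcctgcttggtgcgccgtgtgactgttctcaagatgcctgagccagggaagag
Acta1, chr19:68784145-68784444, minus strand: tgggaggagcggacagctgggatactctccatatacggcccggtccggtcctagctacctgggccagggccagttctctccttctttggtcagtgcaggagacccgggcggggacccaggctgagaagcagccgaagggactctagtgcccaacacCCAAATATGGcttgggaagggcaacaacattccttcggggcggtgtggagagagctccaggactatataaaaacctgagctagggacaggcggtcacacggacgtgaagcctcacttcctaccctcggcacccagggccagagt

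Windows were found for all 10 genes, 12 in all. They were searched on both strands for AGGTCA, the half-site to which thyroid hormone receptors bind, for the CArG box of serum response factor and for the MEF2 box, and no matches of different motifs overlapped. The upstream Tpm3 window holds AGGTCA, its first base 226 bases before the start site, and the downstream Tpm3 windows do not hold it. Actn2 is the other gene whose window holds it, and 16.2% of all 33469 rat windows do. The Acta1 window holds the CArG box CCAAATATGG, and so does that of Actc1 as CCAAATAAGG, against 1.64% of all windows. The Mybpc3 window holds the MEF2 box CTATATTTAG, against 3.29% of all windows. These matches describe the letters of the windows and say nothing of binding in these muscles.

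Hyperthyroid 5 stood apart: Myh13, the myosin that defines extraocular muscle, had a signal of 4.17 on it and at least 5430 on the other 7 arrays, while the summed signal of 8 slow fibre genes was 62442 on it and at most 24370 elsewhere. The 3 measured Hox genes that mark limb position summed to 1044 on it and to at most 128 elsewhere. So the library labelled extraocular muscle lacks that muscle's marker, and the differences of the tested members are given with and without it. The Gapdh control probe sets give a ratio of 3 prime over 5 prime signal that is high where RNA is short, and it was 3.91, 4.40, 2.18 and 1.44 on hyperthyroid 1, 2, 3 and 5, against 1.97, 1.68, 1.77 and 1.67 on control 7, 8, 9 and 11 (exact permutation p = 0.229, two-sided, smallest possible p = 0.0286). The same ratio for Actb was 5.53, 6.41, 4.41 and 3.33 on hyperthyroid 1, 2, 3 and 5, against 3.72, 3.63, 3.61 and 2.97 on control 7, 8, 9 and 11 (exact permutation p = 0.114, two-sided), so hyperthyroid 1, 2 and 3 were above all controls. The other array that was least like the rest was hyperthyroid 2, with a mean correlation of 0.855 to the others, against 0.848 for hyperthyroid 5 and at least 0.877 for the other 6. In tissue RNA, fewer cells of a type and less RNA per cell cannot be told apart.

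Across the members, Mybpc3, 1 Tpm1 probe set and 2 of the 11 tested Tpm3 probe sets stood higher in hyperthyroid arrays by unadjusted p, and another Tpm3 probe set stood lower. The skeletal actin, both actinins and the brightest probe sets of Mybpc1 and Mybpc2 had log2 differences between -0.06 and 0.02 on all 8 arrays, and nothing passed the test. Of the 28 probe sets, 26 passed the filter on dim signals and were tested. limma called 0 of these 26 at an adjusted p under 0.05, and 0% of all 18625 probe sets tested. At an unadjusted p under 0.05, 5 members were counted, 4 higher and 1 lower, against 6.25% higher and 5.3% lower (11.5% in all) among all probe sets. In 1 member every hyperthyroid array lay above every control array, against 4.33% of all probe sets, and in 1 every hyperthyroid array lay below, against 3.23%. Of the 26, 12 had a difference above 0, against 52.5% of all. The median log2 difference was -0.01 over the 26 members and 0.03 over all probe sets. With hyperthyroid 5 left out, limma again called 0 members, against 0.156% of all probe sets (0.0537% higher and 0.102% lower), and the same 5 had an unadjusted p under 0.05, against 7.59% higher and 7.66% lower (15.2% in all). Groups then did not overlap for 3 higher members, against 8.28%, and for 2 lower ones, against 6.51%. Of the 26, 9 were above 0, against 54.2%. The median was then -0.13 over the members and 0.04 over all.

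**Figure D1:**
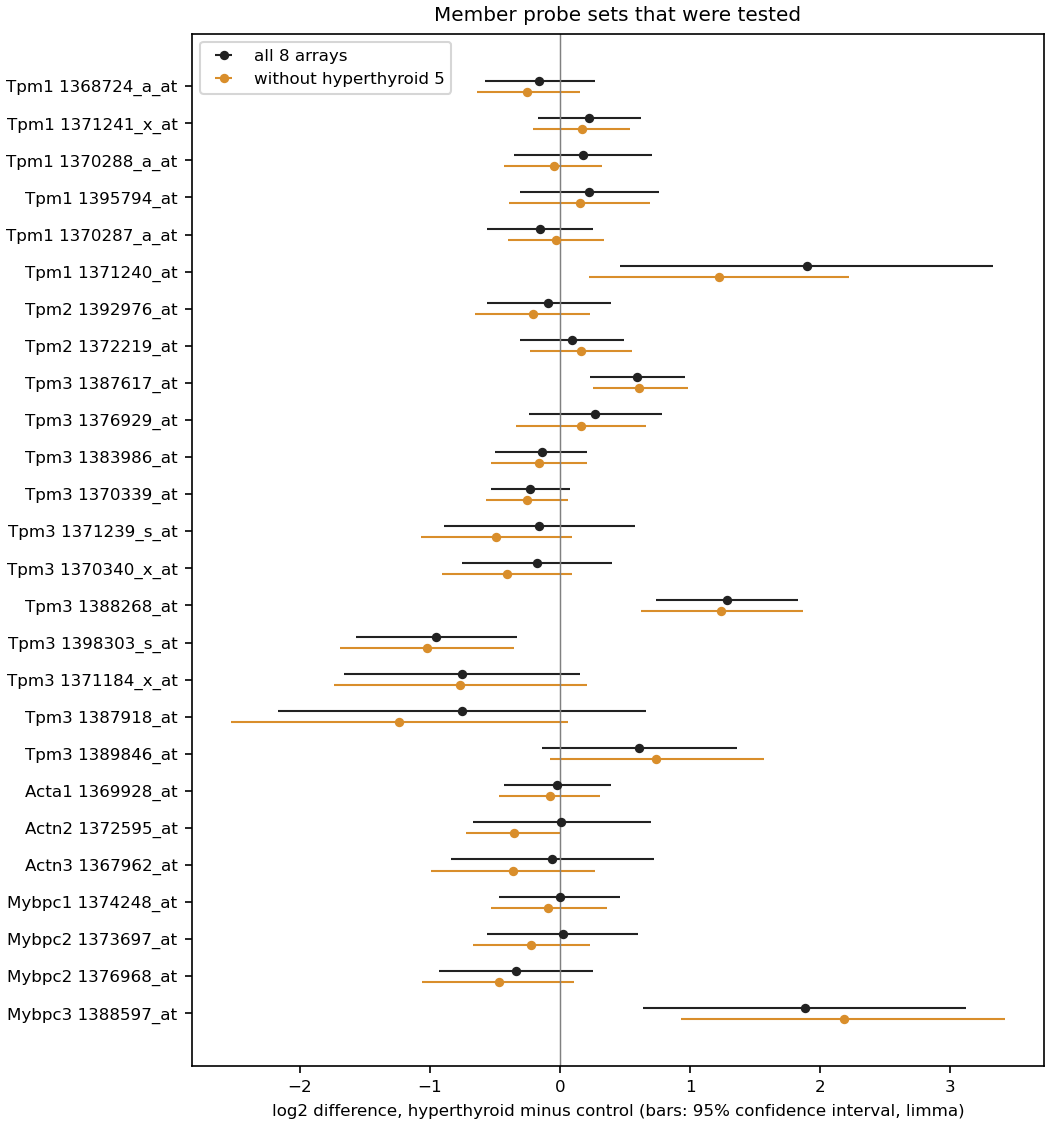
Log2 difference, hyperthyroid minus control, of the 26 tested member probe sets, with 95% confidence intervals from limma, on all 8 arrays and without hyperthyroid 5. The intervals of Tpm1 1371240_at, Tpm3 1387617_at and 1388268_at and Mybpc3 lie above 0 and that of Tpm3 1398303_s_at below 0 in both fits, before adjustment for the number of probe sets.

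Tpm3, the tropomyosin of slow fibres and, from its downstream start, of the non-muscle cytoskeleton, gave different pictures on its 12 probe sets. The brightest, 1387617_at, had signals of 2579, 2339, 2059 and 2187 on hyperthyroid 1, 2, 3 and 5, against 2114, 1335, 1405 and 1322 on control 7, 8, 9 and 11. Control 7 was the only control in the hyperthyroid range, so the groups overlap by this 1 array. Group means were 2291 ± 224 for hyperthyroid and 1544 ± 382 for control arrays (n = 4 each, SD), a log2 difference of 0.59 ± 0.17 (SE) that did not pass (adjusted p = 0.277, limma). Without hyperthyroid 5 it was 0.61 ± 0.17 (adjusted p = 0.142, with 0.142 to 0.504 over all settings).

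The probe set 1388268_at of Tpm3 separated the groups in full. Its signals were 159, 191, 108 and 166 on hyperthyroid 1, 2, 3 and 5, against 64.0, 76.3, 52.0 and 61.0 on control 7, 8, 9 and 11. Group means were 156 ± 34.7 for hyperthyroid and 63.3 ± 10.0 for control arrays (n = 4 each, SD), a log2 difference of 1.28 ± 0.25 (SE), or 2.43-fold, with an adjusted p of 0.214 in limma. By unadjusted p it ranked 21 of 18625 in that fit, the highest place of any member. The difference was 1.24 ± 0.29 with hyperthyroid 5 left out, adjusted p = 0.0948, within a range of 0.0948 to 0.454 over all settings. The part of RNA quality in this difference was not tested.

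In the opposite direction stood 1398303_s_at, a Tpm3 probe set whose suffix marks probes shared by several transcripts. It read 59.0, 81.8, 44.3 and 72.2 on hyperthyroid 1, 2, 3 and 5, against 161, 129, 92.0 and 113 on control 7, 8, 9 and 11. All hyperthyroid arrays were below all controls, with a log2 difference of -0.95 ± 0.28 (SE) and an adjusted p of 0.286 (limma). Left out, hyperthyroid 5 changed this to -1.02 ± 0.31 (adjusted p = 0.164, with 0.156 to 0.504 over all settings). Its 2 companions from the same sequence record, 1370340_x_at and 1387918_at, stood at -0.18 ± 0.26 and -0.75 ± 0.65, with overlapping groups, and at -0.41 ± 0.23 and -1.24 ± 0.60 without hyperthyroid 5. Likewise 1371239_s_at, which shares its record with 1388268_at, stood at -0.16 ± 0.34, and at -0.49 ± 0.27 without that array.

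The other tested Tpm3 probe sets overlapped between groups on all 8 arrays. The second brightest, 1376929_at, read 2406, 1505, 1351 and 2297 on hyperthyroid 1, 2, 3 and 5, against 2231, 1266, 1243 and 1513 on control 7, 8, 9 and 11, so that each group held both high and low arrays (log2 difference 0.27 ± 0.23, SE, and 0.16 ± 0.23 without hyperthyroid 5). The remaining 4 stood at 0.61 ± 0.34 for 1389846_at, -0.14 ± 0.16 for 1383986_at, -0.23 ± 0.14 for 1370339_at and -0.75 ± 0.41 for 1371184_x_at. Without hyperthyroid 5 these 4 stood at 0.74, -0.16, -0.25 and -0.77 in the same order. Leaving out that array ended the overlap for 1389846_at, which was then higher, and for 1370339_at, which was then lower. The dimmest, 1370450_at, was not tested. It had signals of 41.5, 33.8, 6.20 and 2.26 on hyperthyroid 1, 2, 3 and 5, against 21.3 to 45.9 in control arrays. Of the 11 tested, 4 were thus above 0 and 7 below. Across the 8 arrays, 1387617_at correlated with 1388268_at at r = 0.79 and with 1376929_at at r = 0.70, and with 1398303_s_at at r = -0.49. These are descriptions over arrays that share the 2 groups. No source used here says which transcript each probe set reads.

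**Figure D2:**
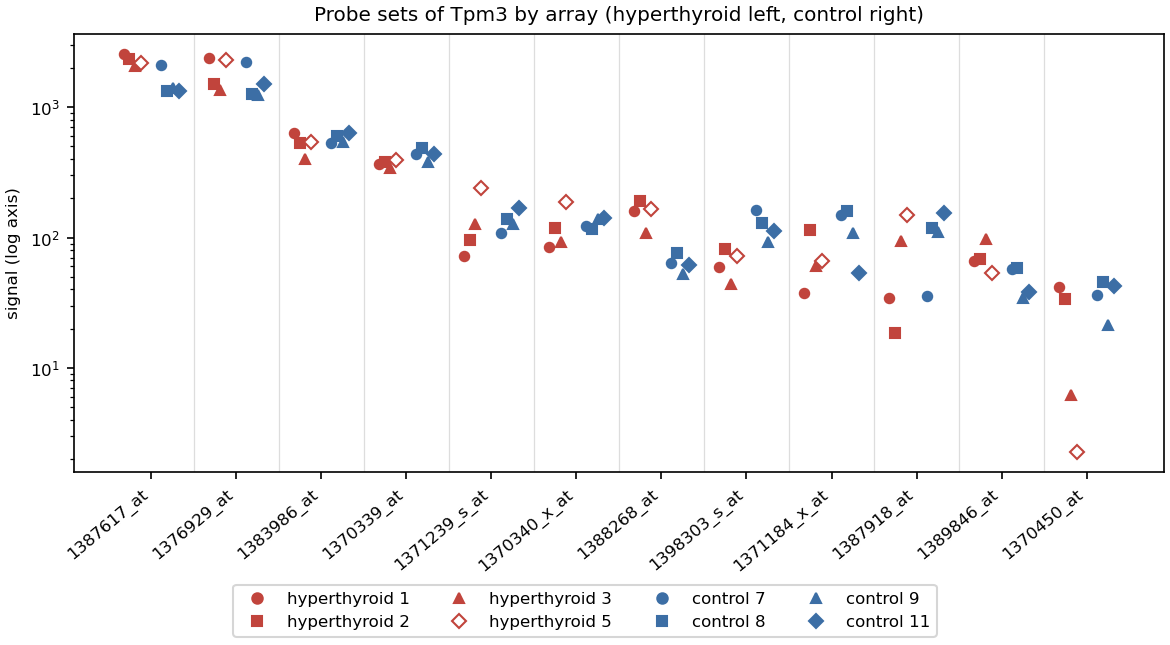
Signal (log axis) of the 12 Tpm3 probe sets on each array, ordered by mean signal, with hyperthyroid arrays on the left and control arrays on the right of each column. The 4 hyperthyroid arrays lie above all controls for 1388268_at (108 to 191 against 52.0 to 76.3) and below all controls for 1398303_s_at (44.3 to 81.8 against 92.0 to 161).

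Slow fibre markers were looked at beside Tpm3. In the fit on all 8 arrays, 8 of the 8 slow fibre genes had a log2 difference above 0, against 52.5% of all probe sets. The median was 0.61, and 0 passed (0 at an unadjusted p under 0.05, limma). Without hyperthyroid 5, against 54.2% of all probe sets, 5 of the 8 genes were higher (median 0.15). Their summed signal ran from 10719 to 62442 in hyperthyroid and from 10864 to 17794 in control arrays, and none of the 8 was under a signal of 28 on all arrays. For the 3 hyperthyroid arrays other than 5 the sum was 15172, 24370 and 10719. Of 6 measured genes of the non-sarcomeric actin cytoskeleton, 2 were higher and 4 lower, (3 and 3 without hyperthyroid 5), with sums of 5739 to 7727 in hyperthyroid and 6046 to 7861 in control arrays and none under 28 on all arrays. One of them, the non-muscle myosin Myh9, did not overlap, against 4.33% of all probe sets that were higher without overlap. Myh9 read 433 to 590 in hyperthyroid and 287 to 404 in control arrays. Its log2 difference was 0.49 ± 0.16 (adjusted p = 0.331, limma), and 0.41 ± 0.16 without hyperthyroid 5. Without that array, Actg1 (-0.41 ± 0.12) and Actn4 (-0.29 ± 0.16) of the same list were lower without overlap, against 6.51% of all probe sets. The part of these cell types in the Tpm3 values was not tested.

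Tpm1, the alpha tropomyosin of fast muscle and also of smooth muscle and fibroblasts, had small mean differences on its bright probe sets. The brightest, 1368724_a_at, had signals of 16636, 27933, 19361 and 26530 on hyperthyroid 1, 2, 3 and 5, against 30552, 24221, 24611 and 20320 on control 7, 8, 9 and 11. Hyperthyroid 1 and 3 were below every control, and 2 and 5 were inside the control range. The log2 difference was -0.16 ± 0.19 (SE; 95% interval -0.58 to 0.27), and -0.25 ± 0.18 without hyperthyroid 5. The next 3 by signal, 1371241_x_at, 1370288_a_at and 1395794_at, stood at 0.22 ± 0.18, 0.18 ± 0.24 and 0.22 ± 0.24, and at 0.17, -0.05 and 0.15 without hyperthyroid 5.

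The largest Tpm1 difference was that of 1371240_at. On this probe set the signals were 261, 427, 811 and 2937 on hyperthyroid 1, 2, 3 and 5, against 286, 77.5, 201 and 309 on control 7, 8, 9 and 11. Hyperthyroid 2, 3 and 5 were above all controls, and hyperthyroid 1 was among them. The log2 difference was 1.90 ± 0.66 (SE; adjusted p = 0.332, limma). Without hyperthyroid 5 the difference was 1.22 ± 0.46 (adjusted p = 0.243, with 0.187 to 0.535 over all settings). The probe set 1371241_x_at was designed from the same record and stood at 0.22, as given above. A further one, 1370287_a_at, had a log2 difference of -0.15 ± 0.19 (-0.03 without hyperthyroid 5) and correlated negatively with all other tested Tpm1 probe sets (r = -0.84 to -0.69 over 8 arrays). The dimmest, 1370513_at, was not tested and read at most 35.3 in hyperthyroid and 4.84 to 47.0 in control arrays.

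Smooth muscle markers, as another possible source of Tpm1, summed to 4626 to 6132 in hyperthyroid and 4898 to 6943 in control arrays. Of the 7, 3 were higher and 4 lower with and without hyperthyroid 5, 0 passed and none was under 28 on all arrays. The sum also holds Des, a gene of the skeletal muscle list too, which read 1507 to 3329 in hyperthyroid and 2599 to 3074 in control arrays. Without hyperthyroid 5, Des stood at -0.57 ± 0.16 and the smooth muscle myosin Myh11 at 0.65 ± 0.24, so the members of this list differed in sign. In the fit on all 8 arrays, 6 of the 6 fibroblast markers had a log2 difference below 0 (median -0.31). Without hyperthyroid 5 it was 5 of 6 (median -0.76), again with 0 passing. At an unadjusted p, 1 of the 6 was under 0.05 on all 8 arrays, against 5.3% of all probe sets lower, and 5 of the 6 without hyperthyroid 5, against 7.66%. They summed to 12759 to 41804 in hyperthyroid and 19184 to 36612 in control arrays, and none was under 28 on all arrays. The part of these cells in the Tpm1 values was not tested.

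**Figure D3:**
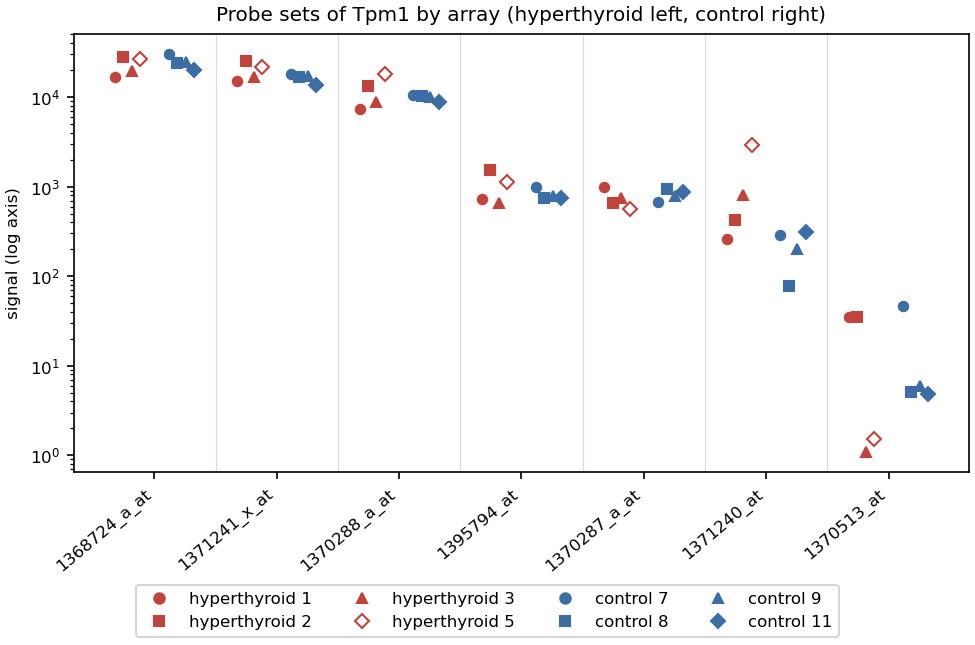
Signal (log axis) of the 7 Tpm1 probe sets on each array, ordered by mean signal, with hyperthyroid arrays on the left and control arrays on the right of each column. The groups overlap for every probe set, and 1371240_at reaches 2937 on hyperthyroid 5 against at most 309 in control arrays.

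Tpm2, the beta tropomyosin found in both fast and slow fibres, showed a wide spread among hyperthyroid arrays on its bright probe set 1392976_at. The signals were 8048, 16258, 8722 and 14652 on hyperthyroid 1, 2, 3 and 5, against 12110, 12711, 12388 and 11156 on control 7, 8, 9 and 11. The controls lay within 0.19 on the log2 scale and the hyperthyroid arrays spread over 1.01, with a pair below all controls and a pair above. The log2 difference of -0.09 ± 0.22 (SE; 95% interval -0.56 to 0.39; -0.21 ± 0.20 without hyperthyroid 5) is thus a mean over 4 hyperthyroid arrays of which 0 lay inside the control range. The second probe set, 1372219_at, stood at 0.09 ± 0.18 (0.16 ± 0.18 without hyperthyroid 5) and did not follow the first (r = -0.12 over 8 arrays).

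Acta1, the actin of adult skeletal muscle, had signals of 22135, 39535, 26975 and 33901 on hyperthyroid 1, 2, 3 and 5, against 35308, 31930, 27691 and 27108 on control 7, 8, 9 and 11. Hyperthyroid 1 and 3 were below all controls and hyperthyroid 2 was above. The log2 difference was -0.02 ± 0.19 (SE; 95% interval -0.43 to 0.39; -0.08 ± 0.18 without hyperthyroid 5), so a change of either sign up to about these bounds is within the precision of the 8 arrays. The 5 probe sets assigned to Acta2 and Actc1 together, smooth muscle and cardiac actin, are not members and do not tell the 2 genes apart. The brightest, 1370856_at, read 12035, 13224, 13644 and 1272 on hyperthyroid 1, 2, 3 and 5, against 17503, 16170, 13256 and 15209 on control 7, 8, 9 and 11. It was thus far below all other arrays on hyperthyroid 5 alone. The dimmer 1374352_at and 1385797_at were lower on all hyperthyroid arrays than on all controls. Over all probe sets, 3.23% were lower without overlap on 8 arrays, and 6.51% without hyperthyroid 5. The log2 differences were -0.82 ± 0.19 and -1.21 ± 0.27 without hyperthyroid 5 (SE; limma adjusted p = 0.0941 and 0.0929). With that array they were -1.29 ± 0.39 and -1.67 ± 0.42 (adjusted p = 0.295 and 0.255). The groups overlapped for 1374353_x_at and 1381861_x_at. These stood at -1.34 ± 0.48 and -0.13 ± 0.52, and at -0.73 ± 0.19 and 0.19 ± 0.50 without hyperthyroid 5. A probe set annotated to Acta2 by itself, 1370857_at, read 261 to 410 in hyperthyroid and 296 to 452 in control arrays.

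The mean differences of the actinins moved with hyperthyroid 5. Actn2, present at the Z-discs of all fibres, had signals of 1587, 2150, 1405 and 4644 on hyperthyroid 1, 2, 3 and 5, against 1978, 2664, 1814 and 2261 on control 7, 8, 9 and 11. Only hyperthyroid 5 was above all controls, and hyperthyroid 1 and 3 were below them. The log2 difference was 0.01 ± 0.31 (SE) with that array and -0.35 ± 0.17 without it (95% interval -0.72 to 0.01). Actn3, the actinin of fast fibres, read 5968, 16552, 11193 and 23834 on hyperthyroid 1, 2, 3 and 5, against 16046, 13077, 16113 and 9260 on control 7, 8, 9 and 11. The hyperthyroid arrays covered 2.00 on the log2 scale and the controls 0.80, and the difference was -0.06 ± 0.36 on all arrays and -0.36 ± 0.29 without hyperthyroid 5.

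Mybpc1, the slow form of myosin binding protein C, which fast fibres also make, had signals of 7100, 14237, 7807 and 11754 on hyperthyroid 1, 2, 3 and 5, against 9142, 11478, 9756 and 9138 on control 7, 8, 9 and 11. As for Tpm2, no hyperthyroid array lay inside the control range, with 2 above it and 2 below. The 95% interval of its log2 difference ran from -0.47 to 0.46, and the difference was -0.09 ± 0.20 without hyperthyroid 5. Mybpc2, the fast form, read 4570, 7280, 5287 and 10836 on hyperthyroid 1, 2, 3 and 5, against 7449, 6088, 8576 and 4629 on control 7, 8, 9 and 11, on its bright probe set 1373697_at. Its groups overlapped, with a log2 difference of 0.02 ± 0.27 (SE) on all arrays and -0.22 ± 0.21 without hyperthyroid 5. The dim Mybpc2 probe set 1376968_at stood at -0.34 ± 0.27, and at -0.47 ± 0.27 without it.

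Mybpc3, the cardiac form of myosin binding protein C, had low signals throughout and a large difference in relative terms. It read 111, 132, 176 and 60.1 on hyperthyroid 1, 2, 3 and 5, against 32.7, 79.1, 10.5 and 31.4 on control 7, 8, 9 and 11. Hyperthyroid 1, 2 and 3 were above all controls, and hyperthyroid 5 was below control 8. Group means were 120 ± 48.2 for hyperthyroid and 38.4 ± 29.0 for control arrays (n = 4 each, SD). The log2 difference was 1.88 ± 0.57 (SE, adjusted p = 0.293, limma). It was 2.18 ± 0.57 without hyperthyroid 5 (adjusted p = 0.128, with 0.128 to 0.504 over the settings in which Mybpc3 was tested). The stricter filter on dim signals left Mybpc3 out. The control 9 signal lies under 28.2, the signal that corresponds to the lowest mean log2 kept by the filter. The size of this difference is thus imprecise, and adding 32 to every signal before taking log2 gave 1.14.

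Other cardiac genes were set beside Mybpc3. Of the 7 in the list, which holds Mybpc3 itself, 6 had a probe set and 3 were bright enough to test, 1 higher, which is Mybpc3, and 2 lower. Without hyperthyroid 5, Mybpc3 and Myh6 (0.67 ± 0.28) were higher, both at an unadjusted p under 0.05, against 7.59% of all probe sets, and 1 was lower. Their summed signal was 771, 842, 628 and 184 on hyperthyroid 1, 2, 3 and 5, against 652, 538, 450 and 406 on control 7, 8, 9 and 11. Myh6, a cardiac myosin that extraocular muscle also makes, read 378, 427, 237 and 35.4 on hyperthyroid 1, 2, 3 and 5, against 151 to 348 in control arrays. The heart hormone gene Nppa read 4.11 to 25.9 in hyperthyroid and 2.21 to 56.8 in control arrays, and cardiac troponin I (Tnni3) read 11.8 to 58.0 in hyperthyroid and 3.26 to 16.9 in control arrays. None of the 6 was under 28 on all arrays, but 1 array above that signal is enough for this. Nppa, Nppb and Tnni3 were too dim to test, and Nppa was above 28 on control 7 alone. The part of cardiac-type fibres in the Mybpc3 signal was not tested.

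**Figure D4:**
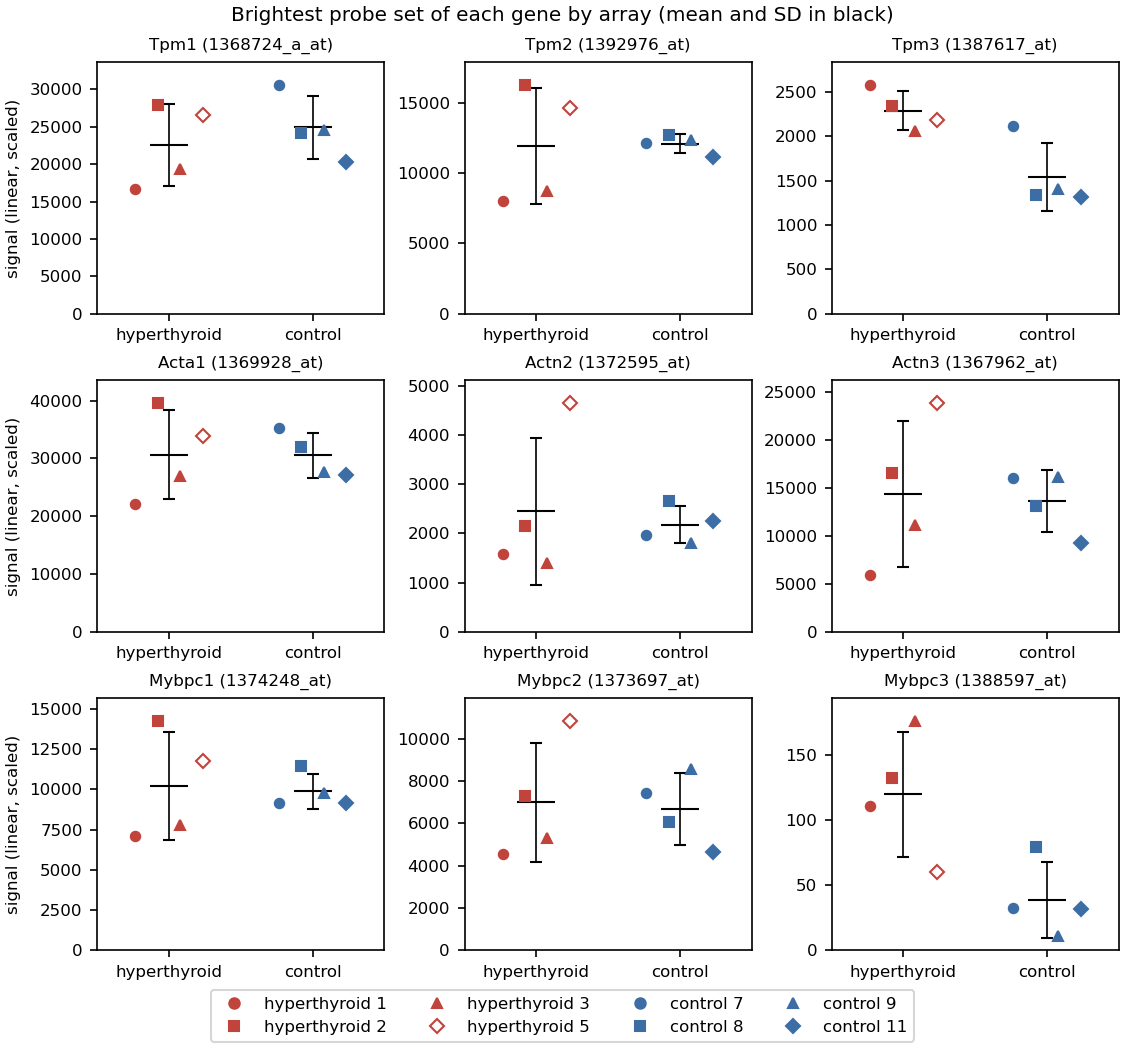
Signal (linear scale, axes from 0) of the brightest probe set of each of the 9 genes on each array, hyperthyroid on the left and control on the right, with the mean and SD (n = 4 per group) in black. Tpm3 and Mybpc3 have higher means in hyperthyroid arrays (2291 against 1544 and 120 against 38.4), while for Tpm2 and Mybpc1 the hyperthyroid arrays lie on both sides of the controls.

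The 9 brightest probe sets were then followed array by array, as log2 signal minus the control mean of the same probe set. Hyperthyroid 1 was the lowest of the 8 arrays for 6 of the 9 and below every control for 7. Hyperthyroid 3 was below every control for 5. Hyperthyroid 2 and hyperthyroid 5 were above every control for 6 each and below every control for 0. Such counts were not made over all probe sets of each array, so whether they are particular to these 9 was not tested. The median of the 9 was -0.47, 0.38, -0.30 and 0.53 on hyperthyroid 1, 2, 3 and 5, and it ran from -0.16 to 0.19 on the controls. Within the hyperthyroid arrays, Tpm1, Tpm2, Acta1 and Mybpc1 had the same order, with 1 lowest, then 3, 5 and 2.

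The hyperthyroid arrays covered a wider log2 range than the controls for 7 of these 9 probe sets and for 21 of the 26 members. Among all probe sets tested the share was 61.5%. The counts include hyperthyroid 5 and were not made without it. On hyperthyroid 1, 2 and 3, Mybpc2 1373697_at ran from 4570 to 7280, a narrower range than 4629 to 8576 on controls. The exceptions among the 9 on all 8 arrays were Tpm3 and Mybpc3. The 7 genes other than these, singled out after their values were seen, correlated with each other at r = 0.47 to 0.96 over the 8 arrays (median 0.74, 21 pairs) and at 0.19 to 0.96 without hyperthyroid 5 (median 0.71). Tpm3 correlated with them at -0.14 to 0.09 over the 8 arrays, and at -0.57 to 0.02 without hyperthyroid 5. Its correlation with Mybpc3 was 0.58 over the 8 arrays and 0.60 without hyperthyroid 5. All these probe sets share the scaling of their array. Beside this pattern, the summed signal of 7 general skeletal muscle markers was 81203, 104673, 84137 and 99925 on hyperthyroid 1, 2, 3 and 5, against 90049 to 106612 on controls, with none under 28 on all arrays. Hyperthyroid 1 and 3 were the lowest arrays in that sum. The Gapdh ratio was 3.91, 4.40, 2.18 and 1.44 on hyperthyroid 1, 2, 3 and 5. On the same arrays the Actb ratio was 5.53, 6.41, 4.41 and 3.33. The 5 measured myelin and glia markers summed to 12348, 1121, 10176 and 110 on hyperthyroid 1, 2, 3 and 5, against 6971 to 15585 on controls, so hyperthyroid 2 and 5 were the lowest arrays there. All 5 were lower with and without hyperthyroid 5, with 0 passing and none under 28 on all arrays. Of these, Mobp was near 0 on hyperthyroid 5, at 1.37. The part of muscle content, nerve tissue and RNA quality in the array pattern was not tested.

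**Figure D5:**
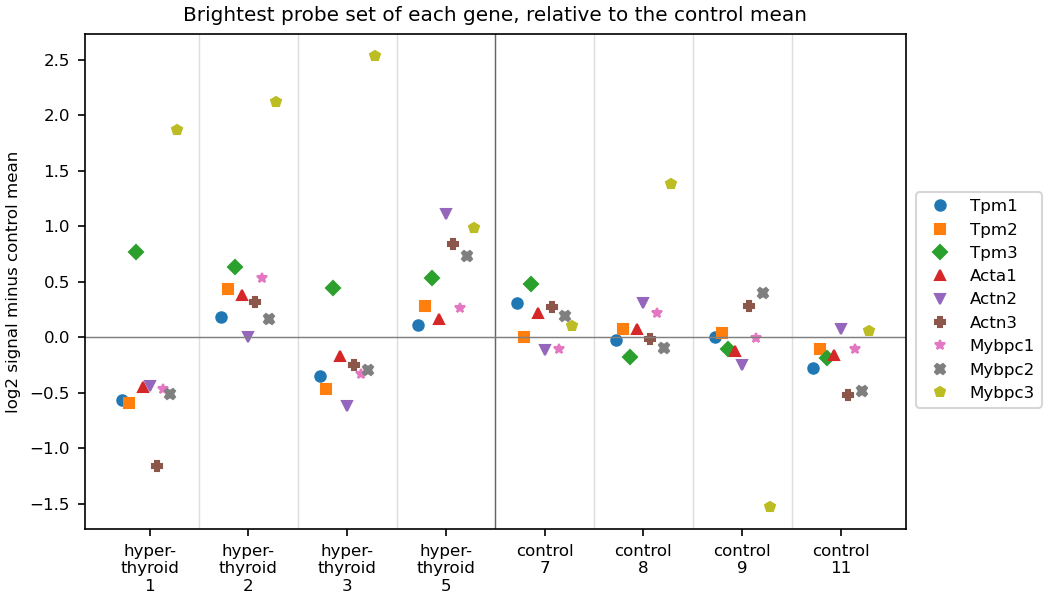
Log2 signal of the brightest probe set of each of the 9 genes minus its mean over the 4 control arrays, for each array, hyperthyroid arrays on the left. Tpm1, Tpm2, Acta1, Actn2, Actn3, Mybpc1 and Mybpc2 lie below 0 on hyperthyroid 1 and 3, whereas Tpm3 (0.44 to 0.77) and Mybpc3 (0.98 to 2.53) lie above 0 on all 4 hyperthyroid arrays.

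Genes with the most similar course over the 7 arrays other than hyperthyroid 5 were sought for the 4 members whose brightest probe set ranged over more than 1 log2 unit there, among 13830 probe sets of other genes. Actn3 was most like Eepd1 (Pearson r = 0.996), Myoz1, a Z-disc protein of fast fibres (0.990), and Mrpl51 (0.990). Mybpc3 was most like Herc3 (0.988), Hddc2 (0.983) and Tcirg1 (0.976). Tpm2 was most like Med4 (0.979), Ythdc1 (0.977) and Cops3 (0.973), and Mybpc1 most like Neurl1 (0.985), Tmf1 (0.984) and Heca (0.975). With so many candidates and 7 arrays, values this high are a description only, and on all 8 arrays the r of Ythdc1 to Tpm2 was 0.529.

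Partner proteins were counted as 3 lists in the same fit, each gene by its brightest probe set. Of 16 measured thin filament genes, which include the troponins, nebulin and the tropomodulins, 8 were higher, 8 lower and 0 passed (median log2 difference -0.01). Of 14 Z-disc partners of actinin, 7 were higher, 7 lower and 0 passed (median 0.00). Of 11 thick filament and M-band genes, 5 were higher, 6 lower and 0 passed (median 0.00). The median over all 10446 genes was 0.01. Without hyperthyroid 5 the higher and lower counts were 5 and 11, 5 and 9, and 5 and 6, with medians of -0.05, -0.12 and -0.18 against 0.02 over all genes, and again 0 passed. Before adjustment, limma gave 1 of the 41 genes a p under 0.05 on all 8 arrays, Smpx, and without hyperthyroid 5 there were 3, 2 and 3 in the 3 lists, all lower. The shares of all probe sets were 11.5% on all 8 arrays and, without hyperthyroid 5, 15.2% in all and 7.66% lower.

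Only 2 of these 41 partner genes had groups that did not overlap on all 8 arrays, and both belong to the thick filament and M-band list. Over all probe sets the groups did not overlap for 4.33% higher and 3.23% lower, so the count is near that share. Mybphl, a shorter relative of the myosin binding proteins C, read 854, 1400, 1425 and 43.4 on hyperthyroid 1, 2, 3 and 5, against 1915, 1767, 1761 and 1602 on control 7, 8, 9 and 11. Its log2 difference of -1.75 ± 0.89 (SE) became -0.56 ± 0.17 without hyperthyroid 5 (adjusted p = 0.474 and 0.171, limma). Smpx, a small muscle protein linked to mechanical load, read 5734, 5751, 5365 and 3155 on hyperthyroid 1, 2, 3 and 5, against 8350, 6404, 6948 and 6055 on control 7, 8, 9 and 11, with a log2 difference of -0.50 ± 0.20 (adjusted p = 0.374), and of -0.29 ± 0.13 without hyperthyroid 5. Neither gene passed the test. Among the marker lists, Krt18, an epithelial keratin too dim to test, read 1.20 to 22.2 in hyperthyroid and 38.6 to 61.7 in control arrays. Krt8, Epcam, Cdh1 and Krt19, the rest of its list, overlapped between groups. Of the 3 genes of that list that were tested, 3 were lower and 0 passed.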

How the data were processed

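The deposited values are intensities, 1 per probe set and array. Per the submitters' processing notes they come from GCOS, the array maker's software, with no version named. From the values themselves, the arrays share a scaling: after trimming 2% at each end the mean was 150.1 on every array, while medians ran from 47.8 to 58.5. No detection calls were used.

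From these values, 57 control probe sets of 31099 were left out, signals were set to at least 1, log2 was taken, and the upper 60% by mean signal over the 8 arrays were kept (18625 probe sets, mean signal above 28.2). Groups were compared in limma 3.58.1 (R 4.3.3; 1 two-sided linear model across all probe sets, moderated by eBayes with trend), with Benjamini-Hochberg adjustment and a threshold of 0.05. SE and 95% intervals are those of this fit. Permutation tests used scipy 1.17.1. The fit was tested on simulated data. The number of arrays limits the precision. Gene names are those of the platform annotation.

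All member probe sets are named. The brightest probe set leads a gene. From each list, members whose groups do not overlap are named. The motifs were chosen, and the members and lists were picked, with earlier results of these data known. Alternatives were quantile normalization, median centring, no filter, the upper 40%, 32 added before log2, no trend, array weights, and leaving out each array. The labels name no batch.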

Additional observations from a re-analysis of the deposited data

Results flagged for a closer look

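Among the 28 member probe sets, each group of 4 arrays was checked for an array whose gap to its nearest neighbour takes up more of the group's log2 range than Dixon's 95% critical value for 4 samples. Of 56 such groups 2 stood out, and about 1 in 20 would by chance. In both the array was control 7. For the Tpm3 probe set 1387617_at it had a signal of 2114, against 1322 to 1405 on the other controls, and the gap was 0.871 of the range. For the dim, untested Tpm1 probe set 1370513_at it had 47.0, against 4.84 to 5.95, and the gap was 0.909 of the range. Hyperthyroid 1 and 2 read 35.3 and 35.2 on that probe set and hyperthyroid 3 and 5 read less than every control.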

How the results depend on the processing

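No member probe set that was tested passed the threshold in any of the 15 other settings. The stricter filter on dim signals left out Mybpc3 and the Tpm3 probe sets 1387918_at and 1389846_at. All probe sets called numbered 0 in the other settings except with array weights, where 6 passed; leaving out 1 array in turn gave 0 to 29, the 29 without hyperthyroid 5. Of the 26 tested members, 16 kept their direction in every setting that tested them. Among these were the Tpm3 probe sets 1387617_at, 1388268_at and 1398303_s_at, Tpm1 1371240_at and Mybpc3. Left out in turn, single arrays gave log2 differences of 1.18 to 1.45 for Tpm3 1388268_at, 0.53 to 0.75 for 1387617_at, 1.37 to 2.34 for Mybpc3 and 1.22 to 2.38 for Tpm1 1371240_at. No paired analysis was possible because the groups share no replicate number.

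The direction turned for members near 0. With quantile normalization Acta1 was at 0.17, Actn3 at 0.02 and Mybpc1 at 0.05. With median centring Tpm2 1372219_at was at -0.03, Actn2 at -0.11 and Mybpc2 1373697_at at -0.10. With array weights Tpm1 1370288_a_at was at -0.01, Actn2 at -0.26 and Mybpc2 1373697_at at -0.19. Leaving out single arrays gave -0.05 to 0.38 for Tpm1 1370288_a_at, -0.01 to 0.41 for Tpm1 1395794_at, -0.26 to 0.08 for Tpm2 1392976_at, -0.03 to 0.25 for Tpm2 1372219_at, -0.49 to 0.09 for Tpm3 1371239_s_at, -0.15 to 0.12 for Acta1, -0.35 to 0.22 for Actn2, -0.36 to 0.30 for Actn3, -0.18 to 0.15 for Mybpc1 and -0.22 to 0.20 for Mybpc2 1373697_at. The cause was not tested.

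Median centring lowered the median of all tested probe sets to -0.09, from 0.03 as deposited. The largest SEs among the tested members were 0.66 for Tpm1 1371240_at, 0.65 for Tpm3 1387918_at and 0.57 for Mybpc3. Precision did not simply follow signal, as the dim Tpm3 1388268_at had an SE of 0.25 and the bright Actn3 0.36.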
